A study of Mus musculus with 24 samples.

Results

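The adrenal glands of castrated male mice lacking Kcnk3 were compared with those of castrated wild-type (WT) males on expression arrays. The comparison takes the arrays whose description names castrated Kcnk3 null males, 3 arrays, and those that name castrated WT males, 3 arrays, together 6 of the 24 arrays of the study. Both groups are labelled C57BL/6, male and castrated, so they differ by label only in the genotype, WT or Kcnk3 null. The construction of the null allele, the age of the mice, the time since castration and the hour at which glands were collected are not given in the sources used here. The study as a whole set the genotypes WT and null side by side in 8 groups of 3 arrays, which also held sham males, sham females and females injected with testosterone. The labels do not say whether each array is a separate animal or a pool, so the p-values below measure a spread between arrays. That spread was estimated for each feature within all 8 groups of the 24 arrays, not from the 6 compared arrays alone.

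Kcnk3 encodes TASK-1, a background potassium channel of the two-pore family that helps to hold the membrane of adrenocortical cells at a negative potential. In the zona glomerulosa, the outer layer of the cortex, this potential restrains calcium entry and with it the synthesis of aldosterone, the hormone that makes the kidney retain sodium. In mice the effect of losing this channel is known to depend on sex and on androgen, and castration removes the androgen of the testis.

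Every level below is the log2 of the background-corrected spot signal minus the 75th percentile of its array, and every difference is null minus WT on that scale, with the standard error (SE) of the fit. A feature is one gene or, where a probe has no gene name, one probe. It was called when its limma p, adjusted by Benjamini-Hochberg over all 31082 features tested, was under 0.05. Where no array of a group lay well above background, the difference has only a bound, given as "at least N-fold". Levels of different probes are not comparable with each other. Arrays and slides are numbered 1 to 3, and each of these slides held 1 array of each castrated group. Array 3 of the WT sham females and of the WT testosterone females lay on a further slide.

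The sequences of 3 probes of central genes, and of the probe with the largest difference, show what was measured. Positions are those of the array files (mm9). The Cyp11b2 probe lies at chr15:74681530-74681855, an interval longer than the probe, so it spans an intron. The Abhd1 probe lies at chr5:31256786-31256925 and also spans an intron. The Saa3 probe lies at chr7:53970389-53970448, and the probe A_30_P01023652, which the file assigns to the noncoding RNA Xist, at chrX:100655839-100655898. No part is in capitals because no motif was searched in them.
Cyp11b2: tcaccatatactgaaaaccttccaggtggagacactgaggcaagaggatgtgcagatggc
Abhd1: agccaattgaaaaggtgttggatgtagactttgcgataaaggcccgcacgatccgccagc
Saa3: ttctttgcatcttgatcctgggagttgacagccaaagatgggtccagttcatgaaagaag
A_30_P01023652: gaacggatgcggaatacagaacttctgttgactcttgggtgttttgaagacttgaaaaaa

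The targeted gene was read first. Kcnk3 stood at 5.70, 5.64 and 5.31 in WT arrays 1, 2 and 3 and at 3.30, 3.06 and 2.84 in null arrays 1, 2 and 3. The groups did not overlap, and the null arrays read 21.0%, 17.6% and 15.2% of the WT mean. The difference was -2.48 ± 0.32 (SE; limma adjusted p = 0.000478). The probe lies at chr5:30927090-30927149, and the labels do not say whether the deletion removes it, so the remaining signal is no test of the genotype.

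Sex-linked transcripts set some of the null arrays apart from their label, and 1 neighbour of Kcnk3 set WT arrays 2 and 3 apart from WT array 1. Xist, transcribed from the inactive X chromosome of females, reached 17.4%, 58.0% and 4.15% of its mean in null sham females in null arrays 1, 2 and 3, while no WT array exceeded 1.00%. The Y-linked gene Ddx3y, relative to its mean in WT sham males, reached 81.5%, 33.6% and 107.8% in the null arrays and between 102.9% and 115.6% in the WT arrays. Abhd1 stood at -2.42 in WT array 1 but at -0.80 and -0.85 in WT arrays 2 and 3, where it read 20.1% and 19.3% of the null mean, and at 1.58, 1.71 and 1.23 in the null arrays. RNA integrity numbers were 7 in each null array and 9, 8 and 8 in WT arrays 1, 2 and 3, so integrity and genotype cannot be told apart within these 6 arrays. Counts of calls, and the values of some genes, are therefore also given without null arrays 1 and 2 and without WT arrays 2 and 3. Null array 3, which stays in the former fits, itself carried Xist at 4.15%, so those fits are not free of this signal.

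**Figure D1:**
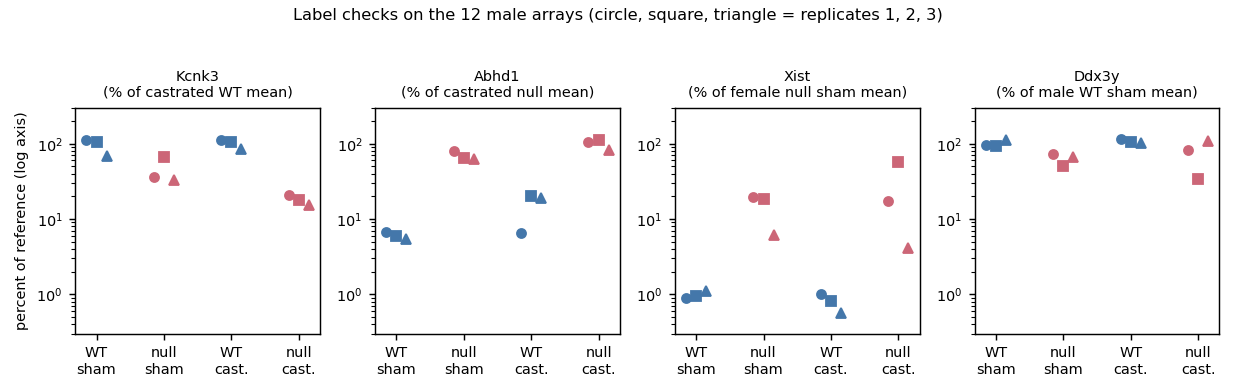
Each point is 1 male array, with its signal as a percent of a reference mean on a log axis, for Kcnk3, Abhd1, Xist and Ddx3y. Kcnk3 lies between 15.2% and 21.0% in the castrated null arrays, while Xist ranges from 4.15% to 58.0% there and Abhd1 lies near 20% in WT castrated arrays 2 and 3.

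Between the castrated groups 217 features passed, with 129 higher and 88 lower in the null glands, which is 0.698% of those tested (0.415% higher and 0.283% lower). Of these, 169 carry a gene symbol. In 29 of the 217 no array of 1 group lay well above background, so their differences have only a bound. The groups did not overlap in any called feature, as in 16.6% of all features. With the slide as a block 374 features were called (1.2%), among them 215 of the 217. Leaving out WT array 1, 2 or 3 gave 114, 126 and 133 called features, and leaving out null array 1, 2 or 3 gave 177, 130 and 159. Without null arrays 1 and 2 the count was 42, of which 36 were among the 217, and without WT arrays 2 and 3 it was 47, of which 34 were. In those fits the single array left in a group is assumed to vary like the other groups. With the RNA integrity number as a covariate over the 24 arrays, 204 of the 217 were still called. Within groups that number varied mainly among female arrays, down to 3. This fit therefore cannot separate integrity from genotype in the castrated males. Of the 42 called genes and probes named by the rule given under the processing, 29 kept their call when any 1 of the 6 arrays was left out. Of the 42, 13 kept it without null arrays 1 and 2, 15 without WT arrays 2 and 3, and 10 in both: Kcnk3, Macc1, Tafa2, Ankrd34b, Wipf3, P3h2, Clic6, Tafa4, Ecrg4 and the probe A_30_P01023652.

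The zona glomerulosa list had called members in both directions. Counts of called members here and in the lists that follow are to be read beside the 0.698% called of all features. Cyp11b2, aldosterone synthase, the last enzyme of aldosterone synthesis, stood at -1.05, 0.41 and -0.19 in the WT arrays and at 3.29, 1.82 and 2.96 in the null arrays. All null arrays lay above all WT arrays, by a difference of 2.97 ± 0.49 (SE), or 7.81-fold (limma adjusted p = 0.0039). The call held when any 1 array was left out, with differences from 2.58 to 3.40, and without WT arrays 2 and 3 (3.74, adjusted p = 0.0295). Without null arrays 1 and 2 the difference was 3.23 with an adjusted p of 0.079.

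Agtr1b and Vsnl1 were the called falls of the same zone. Agtr1b, 1 of the mouse receptors for angiotensin II, the main hormone that drives aldosterone, stood at 1.29, 1.21 and 1.18 in the WT arrays and at -1.11, -1.85 and -1.12 in the null arrays. It fell by 2.59 on the log2 scale (SE 0.35, adjusted p = 0.00071), while its paralogue Agtr1a stood at 4.77, 4.58 and 4.55 against 3.73, 4.06 and 4.39 and did not pass (-0.58 ± 0.18, adjusted p = 0.21). Vsnl1, the neuronal calcium sensor visinin-like 1, stood at -0.13, -0.14 and 0.23 in the WT arrays and at -3.18, -3.13 and -3.43 in the null arrays. It fell by 3.24 on the log2 scale (SE 0.52, adjusted p = 0.00342), with arrays of each group close together. Without null arrays 1 and 2 Agtr1b differed by -2.35 and Vsnl1 by -3.42. Without WT arrays 2 and 3 Agtr1b differed by -2.66 and Vsnl1 by -3.12. Neither gene kept its call in either of these fits. Of the 15 genes of the list 14 were tested: 1 rose, 2 fell and 11 did not pass, at a median difference of -0.28, beside -0.01 over all features tested. Cacna1h, a T-type calcium channel gene (-0.67, adjusted p = 0.472), Hsd3b6, a steroid dehydrogenase gene of this zone (-0.51, adjusted p = 0.4), and Dab2 (-0.12, adjusted p = 1) were among the 11. Fewer cells of a type and less RNA per cell cannot be told apart in these whole-gland samples.

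Other steps of steroid synthesis did not pass. The list of 18 genes had 1 called member, Cyp11b2, and a median of 0.05. Cyp11b1, the neighbouring gene of similar sequence that makes corticosterone, stood at 8.31, 8.26 and 8.01 in the WT arrays and at 7.87, 8.04 and 7.87 in the null arrays (-0.27 ± 0.16, adjusted p = 0.894). Por, the reductase that feeds electrons to microsomal P450 enzymes, differed by 0.60 (adjusted p = 0.186) and Nr0b1, a repressor of steroidogenic transcription, by 0.80 (adjusted p = 0.382). The zona fasciculata list of 10 genes had no called member and a median of -0.53, with 9 of its fitted differences below 0. Its member Abcb1b, a multidrug transporter gene, stood at 6.65, 6.98 and 6.49 against 5.57, 5.69 and 5.55 (-1.10 ± 0.26, adjusted p = 0.0589) and was called with the slide as a block (adjusted p = 0.013). Mrap, which carries the ACTH receptor to the cell surface, differed by -0.54 (adjusted p = 0.56) and that receptor, Mc2r, by -0.52 (adjusted p = 0.533).

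Genes that take up or make cholesterol, the substrate of these enzymes, also had no called member among 32, with a median of -0.46 and 5 members above 0. Dhcr7, Sc5d and Sqle, enzymes of the synthesis, differed by -0.84, -1.04 and -0.91 (adjusted p = 0.186, 0.218 and 0.337). On slides 1, 2 and 3 the list median was -0.64, -0.48 and -0.15. Of the 17 androgen and glucocorticoid metabolism genes tested none passed, at a median of -0.44, and Srd5a1, a steroid 5-alpha-reductase gene, differed by -0.58 (adjusted p = 0.367). None of the 3 X-zone genes, markers of the inner cortical layer that regresses under androgen, passed: Akr1c18 stood at 8.33, 8.35 and 7.82 in the WT arrays and at 7.79, 7.32 and 7.94 in the null arrays (adjusted p = 1).

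Potassium channels, which set the membrane potential, had few called members. Among 11 two-pore potassium channel genes tested Kcnk3 alone passed. Kcnk9, which encodes the related channel TASK-3, stood at 3.79, 4.07 and 4.06 in the WT arrays and at 2.81, 2.81 and 3.08 in the null arrays, without overlap (-1.07 ± 0.30, adjusted p = 0.142). Among 38 other potassium channel genes 1 passed: Kcnq1, a voltage-gated channel, stood at 0.05, 0.12 and 0.12 against 1.70, 2.35 and 1.89 and rose by 1.88 ± 0.28 (adjusted p = 0.0014). Kcnd2, another voltage-gated channel, differed by 0.67 (adjusted p = 0.115; 0.0182 with the slide as a block).

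Among 47 calcium genes the plasma membrane calcium pump Atp2b1 rose (0.87 ± 0.18, adjusted p = 0.024), and the list median was 0.00. Atp2b1 lost its call without any 1 of the null arrays or WT array 1 or 3, with an adjusted p of up to 0.17, and without the filter on dim probes (0.0587).

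**Figure D2:**
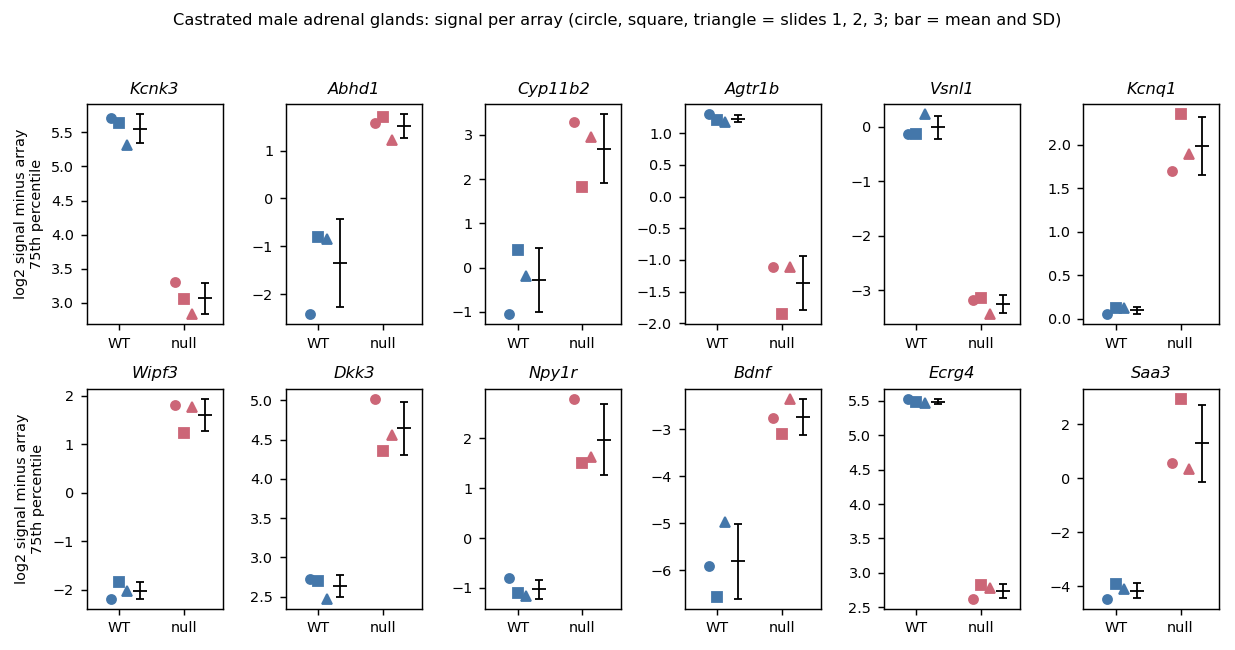
Log2 signal minus the array's 75th percentile in the 3 WT (blue) and 3 null (red) castrated arrays for 12 genes, with circle, square and triangle for slides 1, 2 and 3 and the mean with its SD as a black bar. The null arrays lie apart from the WT arrays in every panel, lower for Kcnk3, Agtr1b, Vsnl1 and Ecrg4 and higher for the other genes shown.

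Wnt signalling is the pathway that maintains the zona glomerulosa. The called members of the Wnt list encode secreted proteins: 2 rose and 2 fell among 47 tested, at a median of 0.03. Dkk3, a secreted glycoprotein of the Dickkopf family, stood at 2.72, 2.70 and 2.47 in the WT arrays and at 5.02, 4.36 and 4.56 in the null arrays, 4.04-fold higher (2.01 ± 0.25, adjusted p = 0.000326). Sfrp4, a secreted Frizzled-related protein, rose by 1.49 ± 0.21 (adjusted p = 0.000951), from -2.57, -2.93 and -2.56 to -1.05, -1.02 and -1.54. Wif1, which binds Wnt ligands outside the cell, was at least 2.54-fold lower (adjusted p = 0.000951) and Ccn5, a matricellular gene of the Wnt-induced family, at least 5.37-fold lower (adjusted p = 0.00488), with no null array well above background for either. Wnt4, the ligand of the zona glomerulosa (0.14, adjusted p = 1), and the targets Axin2 (0.03, adjusted p = 1) and Lef1 (0.53, adjusted p = 0.729) did not pass. Without WT arrays 2 and 3 the adjusted p was 0.0566 for Dkk3, 0.107 for Sfrp4 and 0.238 for Wif1, and with normexp it was 0.123 for Wif1.

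Neuropeptide and neurotrophic genes had 3 risers among 20 tested and a median of -0.08. Npy1r, a receptor for neuropeptide Y, stood at -0.81, -1.11 and -1.16 in the WT arrays and at 2.79, 1.51 and 1.63 in the null arrays, 8.01-fold higher (3.00 ± 0.46, adjusted p = 0.00208). The neurotrophin Bdnf stood at -5.90, -6.56 and -4.98, with 1 of the 3 WT arrays well above background, against -2.75, -3.10 and -2.36, and rose by 3.08 ± 0.54 (adjusted p = 0.00692; 0.0579 without WT array 2). Near background the size depends on the background correction: Bdnf differed by 1.15 with normexp and by 1.50 in the deposited table, where it was also called. Ndnf, a secreted neuron-derived factor, was at least 3.96-fold higher (adjusted p = 0.00224). The partners Npy (-0.04) and Ntrk2, the receptor of Bdnf (0.06), did not pass (adjusted p = 1 for both).

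Genes of the circadian clock were called in both directions. In this feedback loop Arntl (BMAL1) and Clock drive E-box genes, among them the Per and Cry repressors, Ciart, and the PAR-domain factors Dbp, Tef and Hlf, while Arntl itself peaks in the opposite phase. Of 21 genes tested 4 rose and 1 fell, at a median of 0.39, with 12 separated between the groups, beside 0.698% called and 16.6% separated of all features. Dbp stood at 5.03, 4.89 and 4.70 in the WT arrays and at 6.19, 6.89 and 6.09 in the null arrays and rose by 1.52 ± 0.26 (adjusted p = 0.00469). Hlf stood at 0.14, 0.08 and 0.07 against 0.90, 1.83 and 1.48 (1.31 ± 0.25, adjusted p = 0.0128), and Tef at 4.49, 4.44 and 4.37 against 5.22, 6.06 and 5.90 (1.30 ± 0.29, adjusted p = 0.0456). The WT arrays were close together in these genes, and null array 1 was the least shifted for Hlf and Tef. Ciart, well above background in 1 of the 3 WT arrays, stood at -5.15, -6.32 and -5.38 against -3.87, -1.60 and -1.58 (3.27 ± 0.69, adjusted p = 0.0283; 1.54 with normexp and 1.90 in the deposited table, called in both). Arntl fell by 2.46 on the log2 scale (SE 0.53, adjusted p = 0.0355), from 1.72, 1.51 and 1.53 to 0.39, -1.76 and -1.25, so null array 1 was again the least shifted. Per1 (1.07, adjusted p = 0.305), Per3 (1.39, adjusted p = 0.297) and Clock (-0.56, adjusted p = 0.544) did not pass. Dbp kept its call in every omission of 1 array, whereas Ciart, Hlf, Tef and Arntl kept it only when null array 1 was left out, with adjusted p up to 0.175, 0.105, 0.247 and 0.231. With the RNA integrity number as a covariate Tef and Arntl had an adjusted p of 0.0641 and 0.0562, and without the filter on dim probes 0.0833 and 0.0586. The hour of collection is not given in the sources used here, and its part in these differences was not tested.

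**Figure D3:**
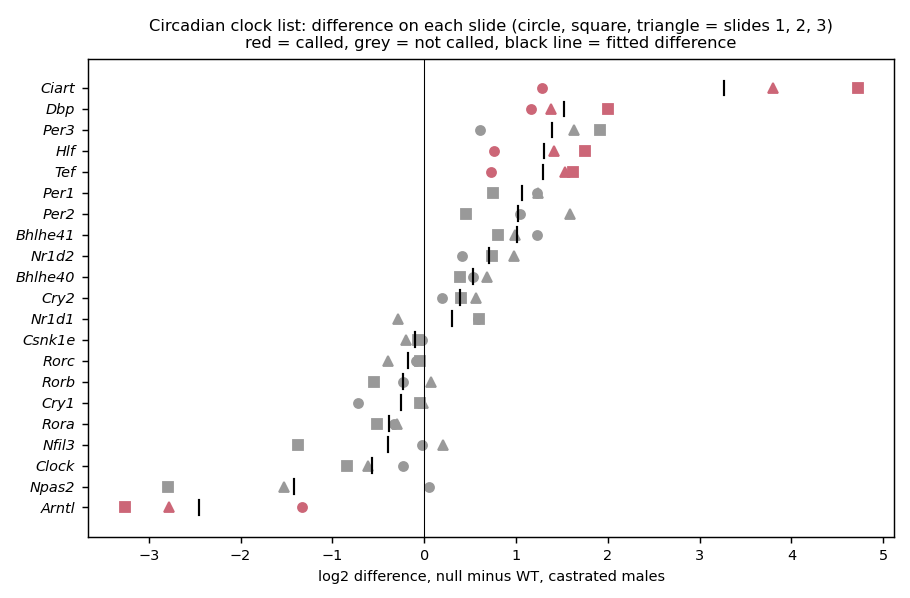
For each of 21 clock genes the null minus WT difference is plotted on slides 1, 2 and 3 (circle, square, triangle), with the fitted difference as a black line and the 5 called genes in red. Ciart, Dbp, Hlf and Tef lie above 0 and Arntl below 0 on all 3 slides, and slide 1 gives the smallest shift for each of the 5.

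Ciart and Tef, called clock genes that rose, and Arntl, which fell, are shown with the bases before their start because the E-box CACGTG, a palindrome and so the same on both strands, is the motif of the loop. The 250 bases upstream of each start come from RefSeq (GRCm38.p6), read 5′ to 3′ on the strand of the gene, with CACGTG in capitals. The windows are chr3:95882229-95882478 (minus strand) for Ciart, chr15:81802423-81802672 and chr15:81811164-81811413 (plus strand) for the 2 listed starts of Tef, and chr7:113207215-113207464 (plus strand) for the first listed start of Arntl.
Ciart: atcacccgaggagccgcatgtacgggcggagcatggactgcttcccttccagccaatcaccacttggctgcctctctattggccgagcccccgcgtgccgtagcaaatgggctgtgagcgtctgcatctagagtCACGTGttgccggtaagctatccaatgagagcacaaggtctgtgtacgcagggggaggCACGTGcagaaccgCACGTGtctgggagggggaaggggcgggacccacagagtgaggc
Tef, start 1: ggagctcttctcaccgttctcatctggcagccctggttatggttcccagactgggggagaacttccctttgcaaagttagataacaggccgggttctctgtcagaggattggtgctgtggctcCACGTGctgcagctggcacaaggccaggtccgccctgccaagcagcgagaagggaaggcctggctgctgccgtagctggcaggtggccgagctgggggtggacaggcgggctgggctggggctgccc
Tef, start 2: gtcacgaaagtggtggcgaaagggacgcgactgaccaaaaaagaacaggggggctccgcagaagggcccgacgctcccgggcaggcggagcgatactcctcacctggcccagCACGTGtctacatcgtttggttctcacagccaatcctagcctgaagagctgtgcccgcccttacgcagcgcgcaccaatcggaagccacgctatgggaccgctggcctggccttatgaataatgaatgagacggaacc
Arntl: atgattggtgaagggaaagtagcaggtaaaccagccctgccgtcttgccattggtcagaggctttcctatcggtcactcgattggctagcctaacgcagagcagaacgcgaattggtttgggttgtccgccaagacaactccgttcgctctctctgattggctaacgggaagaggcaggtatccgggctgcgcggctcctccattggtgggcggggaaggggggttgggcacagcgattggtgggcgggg
Ciart holds 3 copies of the motif in this window, each listed start of Tef holds 1, and Arntl holds 0. Dbp and Hlf, the other called clock genes that rose, also hold 0, and their bases are not shown. Of the 18 listed genes that matched the RefSeq table, 5 held it at any start, or 27.8%, beside 6.86% of all 27025 genes in the table. A match describes these letters and not binding, and 0 copies says nothing on sites elsewhere.

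Among the 15 largest rises and falls were also genes on none of these lists. Macc1, a transcriptional regulator named for colon cancer metastasis, had no WT array well above background (-7.11, -7.56 and -6.38) and stood at -1.31, -1.05 and -0.31 in the null arrays, at least 24.4-fold higher (adjusted p = 7.07e-05). Tafa2, a secreted chemokine-like protein gene, stood at -2.76, -2.53 and -2.51 against 1.36, 1.03 and 2.41 (4.20 ± 0.44, adjusted p = 7.94e-05). Ankrd34b, an ankyrin repeat gene, stood at -3.64, -2.95 and -3.08 against 0.16, 0.38 and 1.06 (3.76 ± 0.31, adjusted p = 2.97e-06). In these 3 genes the gap between the groups exceeded the range within either. Wipf3, an actin regulator of the WASP-interacting family, had the smallest p among genes with a symbol (3.63 ± 0.27, adjusted p = 1.65e-06), from -2.19, -1.85 and -2.03 to 1.82, 1.24 and 1.78. P3h2, a collagen prolyl hydroxylase, rose by 2.93 ± 0.34 (adjusted p = 0.000206). Caps2 rose by 4.14 ± 0.56 (adjusted p = 0.00071), with 1 of 3 WT arrays well above background and null array 2 (0.43) well above null arrays 1 and 3 (-1.96 and -2.66). Caps2 differed by 2.13 with normexp and 2.50 in the deposited table, called in both. Ano4, of the anoctamin family of membrane proteins, and Scel, which encodes sciellin, were at least 3.95-fold and 3.71-fold higher (adjusted p = 0.0131 and 0.00621). Scel lost its call with normexp (adjusted p = 0.0796) and in the deposited table (0.062), and Ano4 lost its call without null array 1 or 2 or WT array 2 or 3.

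Among the genes that fell, Ecrg4, a secreted peptide precursor, varied little within each group: 5.52, 5.47 and 5.46 in the WT arrays and 2.62, 2.82 and 2.78 in the null arrays, a difference of -2.75 ± 0.29 (adjusted p = 7.94e-05). Clic6, of the chloride intracellular channel family, stood at -1.57, -1.11 and -1.18 against -6.30, -4.55 and -5.22, with 2 of 3 null arrays well above background (-4.07 ± 0.43, adjusted p = 8.13e-05; -2.19 with normexp and -2.55 in the deposited table, called in both). Gulo, the last enzyme of vitamin C synthesis in mice, stood at 0.41, 0.73 and 0.50 against -2.96, -2.79 and -2.86 (-3.41 ± 0.56, adjusted p = 0.00402). It was the single called member among 35 vitamin C and glutathione genes, whose median was 0.02. Pdzk1ip1, a small membrane protein that binds PDZ domains, fell by 3.60 on the log2 scale (SE 0.60, adjusted p = 0.00463), from 1.71, 1.04 and 0.90 to -3.36, -2.17 and -1.62.

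Several of the falls reached background. Tgm5, a transglutaminase gene, was at least 11.1-fold lower (adjusted p = 0.00321), Tafa4, of the same family as Tafa2, at least 2.51-fold lower (adjusted p = 2.35e-06) and Gnrhr, the receptor of gonadotropin-releasing hormone, at least 3.6-fold lower (adjusted p = 0.0369; 0.0533 with the slide as a block). Cstdc2, of the cystatin family, and Tmprss13, a membrane serine protease gene, fell by 2.65 and 2.38 on the log2 scale (adjusted p = 0.0329 and 0.0355). Gnrhr and Tmprss13 kept their call only without null array 1, and Cstdc2 only without null array 2 or WT array 3. With normexp Cstdc2 differed by -1.05 (adjusted p = 0.0918) and Tmprss13 by -1.05 (adjusted p = 0.107), and both also lost their call with quantile normalization (0.118 and 0.0776), in the deposited table (0.0524 and 0.0729) and without the filter on dim probes (0.0539 and 0.0586). Gnrhr lost its call with quantile normalization (0.0511) and without that filter (0.0596).

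The acute-phase gene Saa3 rose by 5.45 ± 0.75 (adjusted p = 0.000753), from -4.46, -3.92 and -4.09 to 0.57, 2.93 and 0.36. Null array 2, the array with the most Xist, was the highest, and without null arrays 1 and 2 the difference was 4.52 (adjusted p = 0.108). The other 24 genes of the innate inflammation list did not pass, at a list median of 0.64, and its summed linear signal ranged from 9.83 to 22.9 in the WT arrays and from 15.8 to 42.4 in the null arrays.

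Of 8 mast cell genes tested 3 rose and 5 did not pass, at a median of 1.24 with slide medians of 1.23, 1.12 and 1.38. Fcer1a, the alpha chain of the IgE receptor, stood at -4.79, -5.64 and -5.93 against -2.60, -3.19 and -1.84 (2.91 ± 0.52, adjusted p = 0.00812), with 1 of 3 WT arrays well above background, and differed by 1.23 with normexp and 1.48 in the deposited table, called in both. Mcpt4, a mast cell protease, stood at -2.46, -3.0 and -2.98 against -0.69, -0.96 and -0.26 (2.17 ± 0.44, adjusted p = 0.0199), and Cpa3, mast cell carboxypeptidase, at -1.68, -2.39 and -2.12 against -0.53, -1.21 and 0.11 (1.52 ± 0.33, adjusted p = 0.0366). The chymase gene Cma1, which is also on the renin-angiotensin list, differed by 2.18 ± 0.52 (adjusted p = 0.0662; 0.0376 with the slide as a block). Kit, Gata2 and Hdc, members of the same list, differed by -0.26, 0.02 and -0.36 and did not pass. The summed linear signal of the list ranged from 4.23 to 4.80 in the WT arrays and from 4.94 to 6.39 in the null arrays. Fcer1a lost its call without WT array 3 or null array 3, Mcpt4 without null array 1 or 3 or WT array 2 or 3, and Cpa3 in every omission except that of null array 2. Cpa3 also lost it with quantile normalization (adjusted p = 0.0815), in the deposited table (0.0804) and without the filter on dim probes (0.0641).

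Markers of other cell types were read as checks, and none passed for red blood cells (10 tested), macrophages (12), lymphocytes (11), adipocytes (14), endothelial cells (14), chromaffin cells (16), Schwann cells (6), capsule and stroma (16), gonadal-like cells (10) or kidney and liver (13). The red blood cell list had the highest median of the 31 lists, 1.46, and its summed linear signal ranged from 278 to 442 in the WT arrays and from 718 to 959 in the null arrays, without overlap. Its members Hba-a1, an alpha globin gene with a near-identical copy, and Alas2, the first enzyme of heme synthesis in red cells, differed by 1.52 and 2.00 (adjusted p = 0.369 and 0.379). Of the capsule genes, Gli1, a hedgehog target of capsular progenitors, differed by 1.59 ± 0.36 (adjusted p = 0.0505), from -0.06, -0.68 and -0.23 to 1.16, 1.69 and 0.96. The part of red blood cell, mast cell or capsule content in the other differences was not tested. The immediate early list, which follows handling and stress, had no called member among 17 and a median of -0.10, and its spread lay in the WT arrays: Fosb stood at -3.75, 1.52 and -1.73 there and between -2.91 and -2.78 in the null arrays. The cell cycle list had no called member among 28 and a median of 0.30, with 24 above 0, and the cyclic nucleotide list none among 44 and a median of 0.04.

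**Figure D4:**
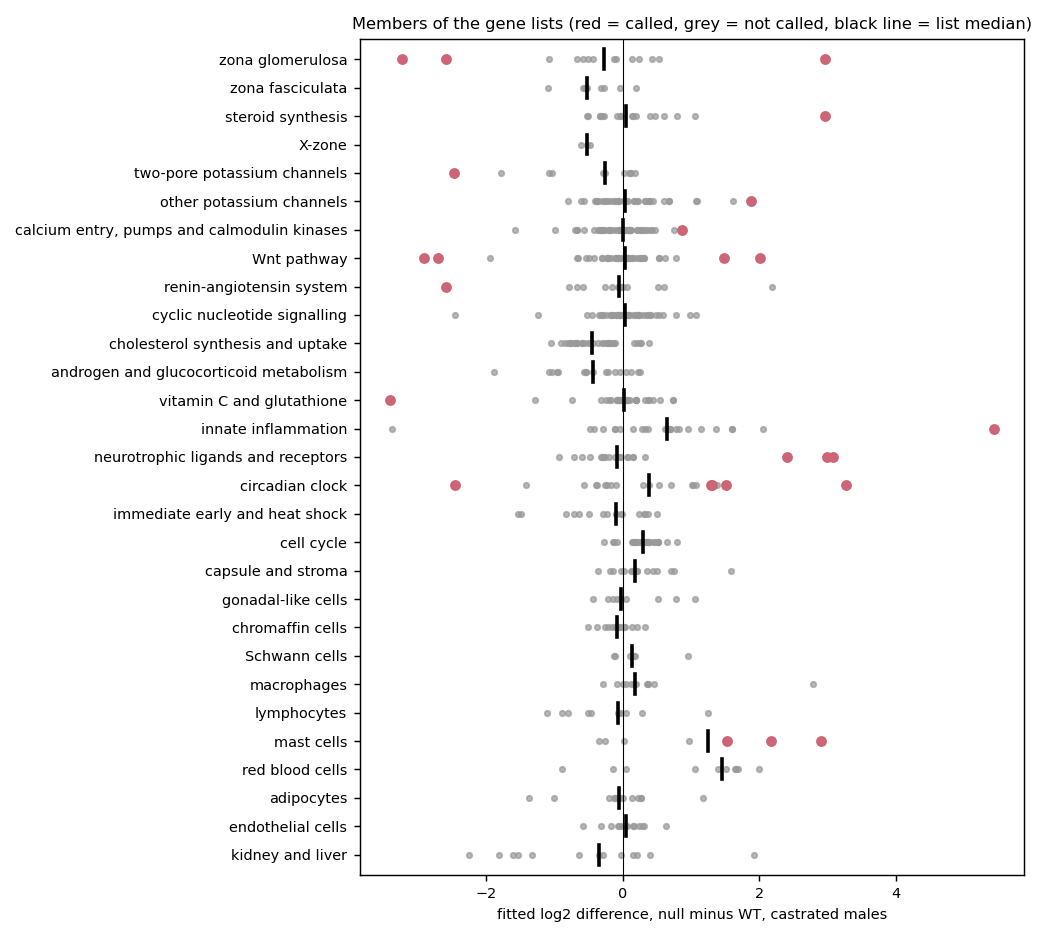
Each point is the fitted log2 difference of 1 list member, red where called, and a black line marks the median of each of 29 lists. Called members lie on the zona glomerulosa, channel, calcium, Wnt, neurotrophic, clock, mast cell and a few other lists, while the cholesterol, zona fasciculata and red blood cell lists have medians of -0.46, -0.53 and 1.46 and no called member. Fitted values of genes at background in 1 group are no fold changes.

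The following 13 called genes were chosen after their values were seen, from no list. Enpp2, which makes the lipid mediator lysophosphatidic acid, stood at 2.65, 2.79 and 2.58 against 4.16, 4.23 and 4.13 (1.50 ± 0.22, adjusted p = 0.00116). Of matrix genes, Tnn, tenascin N, rose by 2.57, Adamts15, a matrix protease, by 2.04, Col4a6, a basement membrane collagen, by 1.81 and Timp3, a protease inhibitor, by 0.77, while Col18a1 fell by 0.76 on the log2 scale (adjusted p = 0.00071, 0.00071, 0.00342, 0.0235 and 0.015). Rcan2, a regulator of the calcium-dependent phosphatase calcineurin, rose by 2.31 ± 0.31 (adjusted p = 0.0007), from 0.22, 0.31 and -0.04 to 2.30, 2.55 and 2.57. The bicarbonate transporter Slc4a4 rose by 1.92 and Clic5 by 1.39, and carbonic anhydrase Car2 fell by 1.13 on the log2 scale (adjusted p = 0.009, 0.000947 and 0.0182). Gpha2, a glycoprotein hormone subunit, rose by 2.20, the orphan nuclear receptor Esrrb by 1.40 and the cell cycle kinase Wee1, which the clock also drives, by 1.24 (adjusted p = 0.000304, 0.00103 and 0.00141). Of these 13 genes Timp3, Col18a1, Slc4a4 and Car2 lost their call in at least 1 omission of an array.

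Features near Kcnk3 were called more often than the background. Within 5 Mb of its probe 6 of the 215 other features were called (2.79%), and within 15 Mb 18 of 440 (4.09%), beside 0.698% of all features. Abhd1, a hydrolase gene 0.33 Mb from the Kcnk3 probe, rose by 2.86 ± 0.35 (adjusted p = 0.000269; 0.0694 without null arrays 1 and 2). Of the 18, 13 are probes without a gene symbol. Their differences had the same sign in 17 of 18 in sham males and in 18 of 18 in sham females, which are separate arrays, and 7 and 10 of them were called there, beside 0.0836% and 0.492% of all features. In testosterone females 15 of 18 had the same sign and 0 were called in limma, where 0.0354% of all features were. All 6 features at Xist rose in castrated males as well, with 62.3-fold as the lower bound for A_30_P01023652 (adjusted p = 3.8e-06), which stood at 0.52, 1.87 and -1.01 in null arrays 1, 2 and 3. Null array 3 had the least signal of the null arrays. The feature named Xist lost its call with normexp background correction (1.15, adjusted p = 0.595) and in the deposited table (1.70, adjusted p = 0.301).

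The differences were then set against those between null and WT in the other groups, each with the interaction test. Against sham males 25 features differed (0.0804%), 10 higher and 15 lower, and 21 of them are among the 217. The null sham male arrays also go against their label: Xist reached 19.5%, 18.3% and 6.08% of its mean in null sham females, and Ddx3y 73.4%, 51.1% and 66.4% of its mean in WT sham males. Kcnk3 read between 33% and 65.8% of its mean in castrated WT males there, which is no test of the genotype. Over the 217, the risers had a median difference of 1.63 in castrated and 0.26 in sham males, and the fallers -1.67 and -0.12, where the 217 were chosen on the castrated values. The difference of Wipf3 was 3.63 in castrated and 0.13 in sham males (interaction adjusted p = 0.000374), that of Ankrd34b 3.76 and 0.45 (0.00441) and that of Ecrg4 -2.75 and 0.17 (0.00682). Agtr1b (-2.59 and 0.26, 0.0252), Tafa2 (4.20 and 0.39, 0.021) and Clic6 (-4.07 and 0.01, 0.0119) also differed, as did Macc1, Tafa4 and Wif1, which have only bounds (adjusted p = 0.00682, 9.84e-05 and 0.0244). Cyp11b2 differed by 2.97 in castrated and 0.60 in sham males, and these were not shown to differ (adjusted p = 0.473). Kcnk3 itself differed by -2.48 and -1.12 (adjusted p = 0.705) and Abhd1 by 2.86 and 3.52 (adjusted p = 1). Leaving out WT array 1 or 2 or null array 1 or 2 gave 11, 12, 16 and 15 such features.

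**Figure D5:**
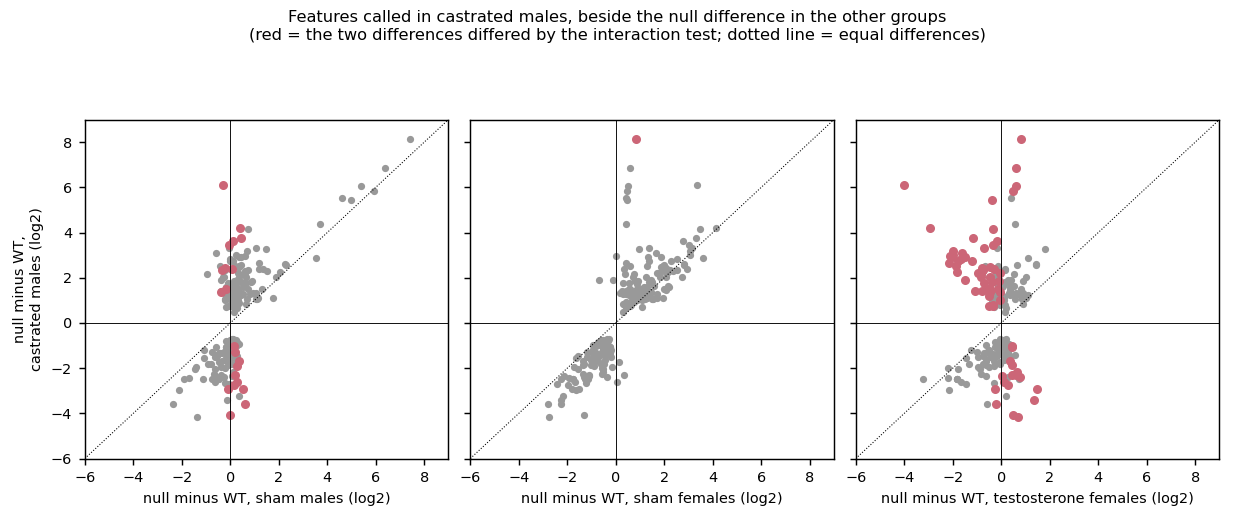
Each point is 1 of the 217 features called in castrated males, with its null minus WT difference there on the vertical axis and the difference in sham males, sham females or testosterone females on the horizontal axis. Red points differed by the interaction test, 21 against sham males, 1 against sham females and 70 against testosterone females, and the dotted line marks equal differences. Fitted values at background are no fold changes.

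In sham females the null differences ran the same way. Of the 217 features 212 had the same sign there, beside 58.8% of all features, and 73 were called in both, which is 33.6% of the 217 and 47.7% of the 153 called in sham females. The interaction test found 1 feature (0.00322%), the Xist probe A_30_P01023652 (adjusted p = 0.0152), with 923 at an unadjusted p under 0.05. Tafa2 differed by 4.20 and 4.13, Npy1r by 3.00 and 3.07, Dkk3 by 2.01 and 1.81 and Kcnk3 by -2.48 and -2.27 in castrated males and sham females. Cyp11b2 differed by 2.97 and 0.02, but this contrast had an interaction adjusted p of 0.966. Of the female WT sham arrays 2 carried Ddx3y, at 29.7% and 36.1% of its mean in WT sham males, so this comparison rests on arrays that go against their label. Castrated null arrays 1, 2 and 3 in turn carried Xist at 17.4%, 58.0% and 4.15% of its mean in null sham females. The part of this signal in the shared direction was not tested. Array 3 of the WT sham females and of the WT testosterone females had an RNA integrity number of 3 and lay on another slide than array 3 of the null females, whose numbers were 7 (sham) and 5 (testosterone).

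Against testosterone females 85 features differed (0.273%), 66 higher and 19 lower, of which 70 are among the 217. Cyp11b2 differed by 2.97 in castrated males and -2.12 in testosterone females (interaction adjusted p = 0.00117), Npy1r by 3.00 and -1.98 (0.00105), Dkk3 by 2.01 and -0.85 (0.000638), Tafa2 by 4.20 and -2.95 (1.01e-05), Fcer1a by 2.91 and -2.02 (0.00323) and Gulo by -3.41 and 1.35 (0.00863). Of these 6 genes only Tafa2 was called within the testosterone females, where 11 of all features were (0.0354%). Kcnk3 differed by -2.48 and -3.25 (adjusted p = 0.97), and Abhd1 by 2.86 and 1.10 (adjusted p = 0.238). The 3 female WT testosterone arrays carried Ddx3y at 30.8%, 18.8% and 32.7% of that mean and Abhd1 at 37.6%, 20.8% and 40.5% of the castrated null mean, and the part of this in the contrast was not tested. Leaving out WT array 1 gave 55 features.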

How the data were processed

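Adrenal RNA was labelled with Cy3 and hybridized to one-colour Agilent arrays, per the labels. Per the file headers, the deposited scanner files hold spot intensities from Feature Extraction 10.7.3.1, with a background-corrected processed signal. The deposited value table holds log2 values of the same arrays, which correlate with the scanner signal by at least 0.998, with column medians from 6.326 to 6.342. It served as an alternative only.

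From the intensities, outlier spots were left out and spots of a probe averaged. The log2 processed signal minus the 75th percentile of each array was used. Of 55681 probes, 36832 passed the filter, a signal well above background in 3 or more of the 24 arrays. The brightest probe stood for a gene, which gave 31082 features, 19413 with a symbol. The share of spots well above background ran from 57.0% to 64.5% on the 6 arrays, whose number limits precision. limma 3.58.1 in R 4.3.3 fitted the means of 8 groups over 24 arrays (16 residual degrees of freedom, prior 2.24), with interactions as contrasts. Summaries used pandas 2.3.3 and numpy 2.4.6 under Python 3.11.15, and plots matplotlib 3.10.9. The procedure was tested on simulated data.

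Replicate numbers of male arrays are slides. Deviations from group means of same-numbered castrated arrays correlated by 0.193, 0.24 and 0.454, so slide was used as a block in an alternative fit. Other alternatives were background correction by normexp (offset 50) with quantile normalization, quantile normalization, the filter, all probes, fewer arrays, RNA integrity, array weights, a trended robust variance and omission of arrays.

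The comparison, the 31 gene lists, the rule for named genes and the omitted array pairs were chosen with earlier results of these data known. The rule takes the 15 largest rises and falls among called, separated genes with a settled symbol, called list members or the 3 with the smallest p, and 5 features per interaction. Some results that the rule would name are not reported here.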

Additional observations from a re-analysis of the deposited data

Results flagged for a closer look

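The null effect of castrated males differed from that of sham males, by the interaction test in limma with Benjamini-Hochberg adjustment over all features, for 9 of the genes named. The differences between the 2 effects, on the log2 scale, were 6.43 for Macc1, 3.81 for Tafa2, 3.30 for Ankrd34b and 3.50 for Wipf3. They were -4.08 for Clic6, -4.22 for Tafa4, -3.45 for Wif1, -2.92 for Ecrg4 and -2.85 for Agtr1b. Against sham females the Xist probe A_30_P01023652 differed by 7.30.

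Against testosterone females the same test gave larger effects in castrated males for Macc1 (10.2), Saa3 (5.82), Tafa2 (7.15), Caps2 (4.50), Ankrd34b (4.94), Wipf3 (3.81), Scel (4.04), Bdnf (4.68), Npy1r (4.98), Cyp11b2 (5.09) and P3h2 (4.44). It did so for Dkk3 (2.86), Sfrp4 (1.96), Ndnf (2.70), Cma1 (4.67), Fcer1a (4.93) and Mcpt4 (3.00), and in the other direction for Tgm5 (-4.83), Clic6 (-4.54), Tafa4 (-3.40), Gulo (-4.77), Wif1 (-4.40), Ecrg4 (-3.03) and Agtr1b (-2.72). The sex-linked features Ddx3y (7.00), Eif2s3y (6.82) and A_30_P01023652 (7.29) differed too. Neither Ddx3y nor Eif2s3y was called in castrated males. Ddx3y read 30.8%, 18.8% and 32.7% of its mean in WT sham males in WT testosterone arrays 1, 2 and 3. In null testosterone arrays 1, 2 and 3 it read 0.0959%, 0.119% and 0.1855%. Values of Macc1, Tafa4, Wif1, Tgm5, Scel, Ndnf and the Xist probe use fitted readings at background and are no fold changes. Those of Ddx3y and Eif2s3y rest on very low readings in the null testosterone arrays and are not to be read as fold changes either. Bdnf, Caps2 and Fcer1a lay near background in castrated WT arrays, so the size of their values depends on the background correction. The groups of 3 arrays are too small for a search for outlying arrays.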

How the results depend on the processing

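The count of 217 features moved to 374 with the slide as a replicate block, 374 in the 12 male arrays alone, 940 with array weights, 42 in the 6 castrated arrays alone, and 0 of 31082 in those 6 with the replicate block (4557 at an unadjusted p under 0.05 in limma). It moved to 42 without null arrays 1 and 2 and 47 without WT arrays 2 and 3, and ranged from 114 to 177 without 1 array. Against sham males 25 became 47, 55, 39, 442, 8 and 5 with the slide as a replicate block, in the 12 male arrays, without the slide that holds only female arrays, with array weights and without those 2 null or 2 WT arrays, and 11 to 19 without 1 array. Against sham females 1 became 0 with normexp (1100 at an unadjusted p under 0.05), the deposited table (1157), the replicate block (1710), the omission of that slide (1477) and RNA integrity (1910), 5 with array weights, 3 without those WT arrays, and 0 to 5 without 1 array. Against testosterone females 85 became 211, 33 and 27 with array weights and without those null or WT arrays, and 55 to 68 without 1 array.

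Of the 42 called genes and probes named, none changed direction in any of these fits. Of the 42 calls, 27 were lost in the 6 arrays alone, 42 there with the replicate block, 7 without the filter on dim probes, 5 each with normexp and the deposited table, 4 with quantile normalization and 2 with RNA integrity. With all 24 arrays the replicate block ended the call of Gnrhr and changed no other call among the 42, and 9 of the 71 named without a call passed with it. Of 31 list medians, 17 moved by more than the spread over slides in at least 1 of the 22 alternatives. With 3 arrays a group and integrity, Xist and Abhd1 signal that differ between them, each difference is less certain than its SE, and near background its size depends on the background correction.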
